A study of Mus musculus with 18 samples.

Results

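The second of the siRNAs against Setd2 was compared with the control siRNA in undifferentiated C2C12 myoblasts. This comparison holds 6 of the 18 samples of the study, 3 with siRNA 2 and 3 with the control siRNA, chosen by the treatment and cell stage that their labels give. C2C12 is a mouse skeletal muscle line that grows as mononuclear myoblasts and fuses into myotubes when it differentiates. The study sequenced polyA RNA from both stages, each with siRNA 2, siRNA 1 or the control siRNA, with 3 libraries per group labelled as biological replicates. All groups share 1 handling step, in that the RNA was taken right after the cells had been stretched, and no unstretched sample was used here. The labels state neither the siRNA sequences nor the time between transfection and harvest, and SETD2 protein was not analysed here, so the depletion is known from Setd2 RNA alone.

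Setd2 encodes a histone methyltransferase that travels with elongating RNA polymerase II and trimethylates histone H3 at the lysine called H3K36 along transcribed gene bodies. Readers of that mark carry it into splicing, DNA repair, DNA methylation and the silencing of cryptic start sites, and SETD2 also methylates tubulin. In muscle precursor cells the balance between growth and differentiation is set by MyoD-family transcription factors together with signals from the matrix, from Notch, TGF-beta and insulin-like growth factors.

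Total estimated counts ran from 45.2 to 55.6 megareads with siRNA 2, from 53.2 to 63.0 megareads with siRNA 1 and from 52.3 to 57.2 megareads with the control siRNA. The table column of the third siRNA 2 library carries SETD3 in its name, whereas the sample's own label has SETD2. In that library Setd2 stood at 40.3 CPM (counts per megaread, TMM-scaled), close to the 46.2 and 45.1 CPM of the other siRNA 2 libraries, and Setd3 stood at 72.4 CPM against 74.7 and 72.5 CPM. It also held more ribosomal RNA-like sequence, 4.1% of counts against 1.46% and 1.9% in its group and 1.2% to 1.36% in control libraries. Library names begin with C14 or D2, a prefix whose meaning is not given, and siRNA 2 and control each hold 1 C14 library, which is replicate 1, and 2 D2 libraries. The siRNA 1 group holds 2 C14 libraries and 1 D2 library, so the prefix is unbalanced between the siRNAs. The labels do not say whether replicates came from separate cultures. The p-values thus measure the spread between these libraries once the prefix is in the model. Differences between library pairs, as a mean chi-square per gene, were smallest within a prefix in controls (2.92 for D2, against 12.28 and 14.6 across prefixes). The same held for siRNA 1 (2.84 for C14, against 13.39 and 14.03). With siRNA 2 the D2 pair stood at 35.34, between 18.1 and 74.44 across prefixes. This mean includes the ribosomal RNA-like genes, whose share was 1.9% and 4.1% in that pair, so it does not show how other genes compared. In a principal component analysis of log2 CPM, the D2 libraries of siRNA 2 lay close together, at 12.61 and 14.51 on the first axis and -23.88 and -22.61 on the second. The C14 library of siRNA 2 lay apart, at 28.48 and -2.06. Whether same-prefix libraries are independent is not stated. All 8 myoblast markers were detected, with a summed level of 2780 to 2980 CPM with siRNA 2 and 1990 to 2310 CPM in controls, and Cidec, Lep, Emcn, Adgre1, Tyrobp, Ibsp, Acan, Sox10, Rbfox3 and Snap25, which mark fat, vessel, immune, bone, cartilage and nerve cells, were at 0 in all 6 libraries. Other members of those marker lists were not at 0: with siRNA 2 the cartilage factor gene Sox9 averaged 114 CPM, the fat cell factor gene Pparg 18.1 CPM and the monocyte receptor gene Cd14 8.12 CPM. The adipocyte list summed to 16.5 to 20.2 CPM with siRNA 2 and 21.1 to 25 CPM in controls, and the osteoblast and chondrocyte list to 195 to 221 CPM with siRNA 2 and 219 to 236 CPM in controls.

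Setd2 itself (chr9:110532597-110618633 of mm10, forward strand) was at 46.2, 45.1 and 40.3 CPM in the siRNA 2 libraries, against 99.9, 111 and 121 CPM in the control libraries. The groups did not overlap. Setd2 fell by 1.33 on the log2 scale (SE 0.12, adjusted p = 0.000271, edgeR quasi-likelihood test), with -1.11 within C14 and -1.44 within D2. Most reads belonged to transcript ENSMUST00000153838, which held 89.2% of the Setd2 counts with siRNA 2 and 91.7% in controls. That transcript had 2280, 1800 and 1920 estimated counts with siRNA 2, against 5410, 5380 and 6190 in controls. A minor transcript, ENSMUST00000197260, had 60.2, 40.8 and 55.6 estimated counts with siRNA 2 and 46.6, 34.7 and 27.4 in controls, which overlap, so the depletion was seen in the main transcript and not in every one listed. Counts of transcripts that share exons are divided by the authors' quantifier and are less certain than the gene's total. Adjusted p for Setd2 stayed at or under 0.0466 over the 14 other settings tried, the highest coming from libraries summed by prefix.

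The other H3K36 methyltransferase genes moved far less, and they were picked for description after their values were seen. Nsd1 rose (239, 253 and 258 CPM with siRNA 2, 218, 226 and 232 CPM in controls; log2 fold change 0.15, adjusted p = 1.88e-06) and Ash1l fell (log2 fold change -0.18, adjusted p = 3.2e-07). Nsd2 and Nsd3, which write the mono- and dimethylated forms, did not pass the test (log2 fold changes 0.04 and 0.03, adjusted p = 0.12 and 0.405). Setd3, which encodes an actin histidine methyltransferase, was slightly higher with siRNA 2 (log2 fold change 0.12, adjusted p = 0.000462), and that call was lost on the TPM scale.

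Across the transcriptome, siRNA 2 was followed by many changes of small size. Of 15942 genes tested, 3690 rose (23.1%) and 3518 fell (22.1%) at an adjusted p under 0.05. The median size of a called change was 0.24 on the log2 scale, and 125 genes rose and 113 fell by at least 2-fold. Without the library named SETD3, 3354 genes rose and 3131 fell. With limma on TPM, where the test, the length correction and the scaling between libraries all differ, 2210 genes rose and 3587 fell, so 38.1% of calls were rises in place of 51.2%, and the median gene moved by -0.035 in place of 0. With RLE scaling alone changed, 51.1% of calls were rises. In bulk RNA such as this, a lower level in every cell and fewer cells with the RNA cannot be told apart.

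**Figure D1:**
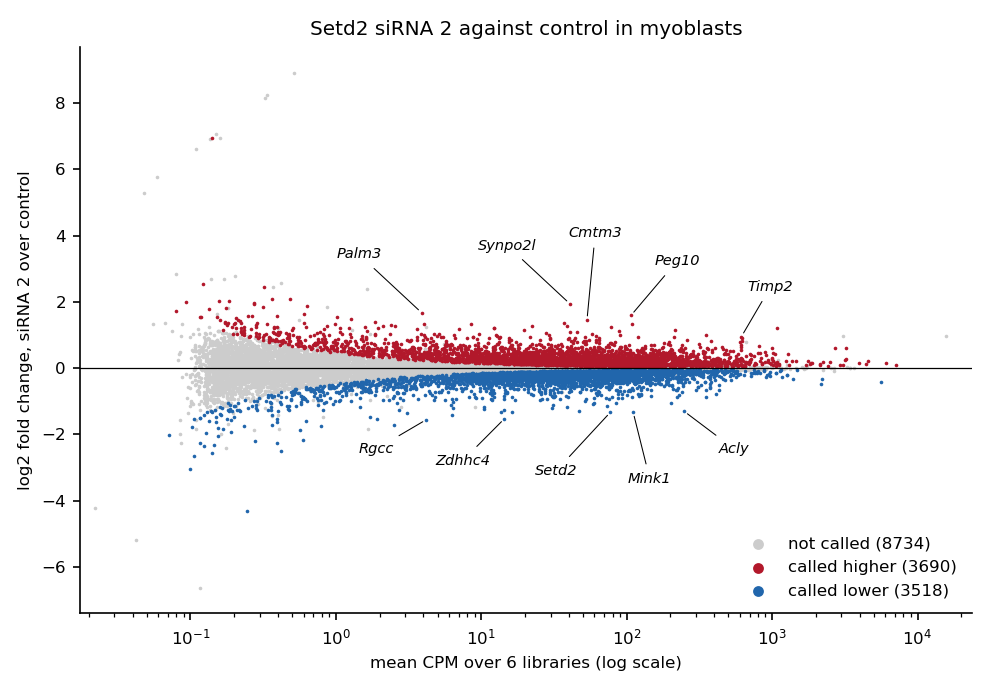
Log2 fold change of siRNA 2 over control in myoblasts against the mean CPM over the 6 libraries (log axis), 1 point per gene tested, red for the 3690 genes called higher and blue for the 3518 called lower. Called changes reach small folds among abundant genes, and Setd2, Acly and Mink1 lie at the lower edge for their level.

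Among protein-coding genes with a mean of at least 1 CPM, Synpo2l, an actin-associated protein of the Z-disc (chr14:20658946-20668354), rose most. It stood at 65.2, 60.6 and 67.5 CPM with siRNA 2, against 21.4, 14.7 and 14.4 CPM in controls, a 3.84-fold rise (log2 fold change 1.94, SE 0.12, adjusted p = 5.42e-05). Each siRNA 2 library was above every control library by a wide margin. Klhl40, which stabilises the thin filament protein nebulin, rose 2.77-fold, and Smyd1, a muscle methyltransferase needed for sarcomere assembly, rose 2.5-fold. Smyd1 stood at 15.0, 11.0 and 10.5 CPM with siRNA 2 and 6.39, 4.36 and 3.89 CPM in controls. The C14 library of each group was the highest of its group for Smyd1, and the groups did not overlap.

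Peg10, an imprinted gene derived from a retrotransposon, stood at 172, 153 and 158 CPM with siRNA 2 and 58.0, 52.1 and 50 CPM in controls, a 3.02-fold rise (log2 fold change 1.59, SE 0.03, adjusted p = 8.8e-27). Cmtm3, a membrane protein of the MARVEL family, stood at 72.2, 81.9 and 80.2 CPM with siRNA 2 and 26.4, 29.5 and 29.8 CPM in controls (log2 fold change 1.45, adjusted p = 1.38e-24). For both genes the replicates lay close together and the groups far apart. Col1a1, the alpha 1 chain of type I collagen, stood at 187, 129 and 146 CPM with siRNA 2 and 82.6, 51.2 and 52.6 CPM in controls (log2 fold change 1.32, SE 0.08, adjusted p = 4.4e-05). The remaining 6 of the 12 largest rises were Palm3, a paralemmin of the plasma membrane (log2 fold change 1.67), Depp1, an autophagy regulator induced by FOXO factors (1.53), the small GTPase Diras2 (1.41), the tetraspan protein Lhfp (1.37), the adhesion molecule Mcam (1.33) and the tetraspanin Tspan32 (1.29).

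**Figure D2:**
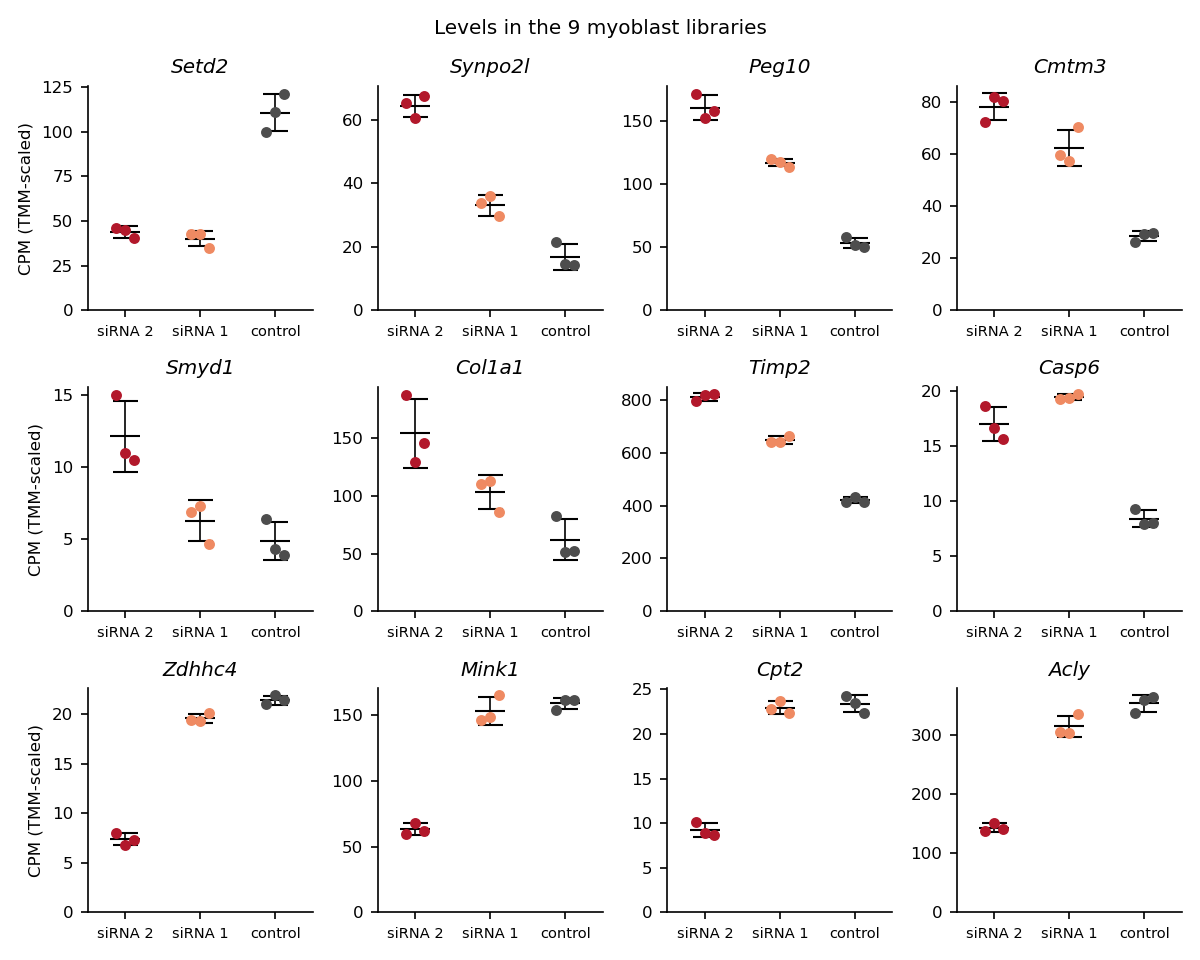
CPM of 12 genes in each of the 9 myoblast libraries (points), with siRNA 2 left, siRNA 1 in the middle and control right, and the mean ± SD of each group (n = 3). Synpo2l, Peg10, Cmtm3, Smyd1, Col1a1, Timp2 and Casp6 are higher with siRNA 2 than in controls and Setd2, Zdhhc4, Mink1, Cpt2 and Acly lower, and the siRNA 1 libraries lie near the controls for Mink1, Cpt2, Zdhhc4 and Acly.

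Of the 12 largest falls, Zdhhc4, a palmitoyltransferase that attaches lipid to proteins, stood at 8.04, 6.81 and 7.34 CPM with siRNA 2 and 21.0, 21.9 and 21.4 CPM in controls (log2 fold change -1.53, SE 0.06, adjusted p = 9.61e-20). Mink1, a kinase upstream of JNK, stood at 59.2, 68.0 and 61.7 CPM with siRNA 2 and 154, 161 and 161 CPM in controls (log2 fold change -1.33, SE 0.03, adjusted p = 5.92e-23). Every siRNA 2 library lay far below every control library for both genes. Cpt2, which completes the entry of long-chain fatty acids into mitochondria, stood at 10.1, 8.93 and 8.70 CPM with siRNA 2 and 24.3, 23.5 and 22.4 CPM in controls (log2 fold change -1.34, adjusted p = 1.19e-19). Rpia, which interconverts pentose phosphates, fell by 1.33, and Tbc1d10b, a GTPase-activating protein for Rab proteins, fell by 1.31 on the log2 scale.

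Rgcc, a regulator of the cell cycle, fell by 1.56, and Pappa, a secreted protease that frees insulin-like growth factors from their binding proteins, fell by 1.43 on the log2 scale. Il1rl1, the receptor of interleukin 33, fell by 1.35 and Car6, a secreted carbonic anhydrase, by 1.48. Car6 had 1.39, 0.712 and 0.605 CPM with siRNA 2 and 2.27, 2.53 and 2.79 CPM in controls, and of all genes named here its log2 fold change moved most, by 0.25, without the library named SETD3. The granzyme inhibitor copies Serpinb9e and Serpinb9g also fell (log2 fold changes -1.73 and -1.53), with values that are uncertain because near-identical copies share reads.

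To see which functions moved, 23 gene lists were described by how many tested members rose and fell, beside the 23.1% and 22.1% of all genes. Most muscle genes rose. Of 37 myogenic regulators tested, 30 rose and 2 fell (median log2 fold change 0.37), and of 53 sarcomere genes 34 rose and 2 fell (0.54). Without the prefix in the model 14 and 15 of these members rose, with medians of 0.34 and 0.55. Muscle levels differed with the prefix: the myogenin gene Myog, described after its values were seen, had 58.8 CPM in the C14 library of siRNA 2 and 28.0 and 29.3 CPM in the D2 libraries, against 34.6 CPM in the C14 control and 13.8 and 11.0 CPM in the D2 controls. Across prefixes the groups overlapped for Myog and within each prefix siRNA 2 was higher (log2 fold change 1.01, SE 0.12, adjusted p = 0.00112), a call that was lost without the prefix in the model.

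Id3, an inhibitor of MyoD-family factors, stood at 60.1, 85.8 and 85.7 CPM with siRNA 2 and 35.2, 51.1 and 48.5 CPM in controls (log2 fold change 0.78, adjusted p = 1.75e-19). The lowest siRNA 2 value, in the C14 library, was still above the highest control. M-cadherin, Cdh15, which joins myoblasts to each other, rose by 0.52, the laminin receptor subunit Itga7 by 0.44 and Notch1, a receptor that holds back differentiation, by 0.44. The 2 members that fell were the E-protein gene Tcf3 (-0.31), whose product pairs with MyoD, and Six4 (-0.08), a homeobox factor whose call was lost under 4 other settings. The factors that define the lineage, named after their values were seen, rose as well: Myod1 (109, 120 and 118 CPM with siRNA 2, 98.3, 100 and 93.9 CPM in controls; log2 fold change 0.25) and Myf5 (0.43). Pax7, a stem cell factor, stood at 0.08 with an adjusted p of 0.0372 that was not kept under most other settings. The intermediate filament gene Des rose by 0.46. The myoblast marker sum given above includes Myod1, Myf5, Pax7, Cdh15, Itga7 and Des, so its rise repeats these values and is no separate result.

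In the sarcomere list the smallest p-values belonged to Actn3, the alpha-actinin of fast fibres (95.1, 65.2 and 69.4 CPM with siRNA 2, 63.0, 43.8 and 42.2 CPM in controls; log2 fold change 0.63), Synpo2, a Z-disc protein (0.73), Flnc, the muscle filamin (0.41), and Cryab, a small heat shock protein of the Z-disc (0.41). The 2 falls were small, in Pdlim5 (-0.11), a Z-disc adaptor, and in the tropomyosin gene Tpm1 (-0.07). The call for Actn3 was lost without the prefix in the model and that for Pdlim5 with limma on TPM. The call for Tpm1 was lost without the prefix, with libraries summed by prefix and without siRNA 2 replicate 2.

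Targets of YAP/TAZ, the Hippo pathway's transcriptional effectors, and of SRF, a factor that couples actin dynamics to transcription, rose in 36 of 51 cases and fell in 7 (median 0.25). Cnn2, an actin-binding calponin, stood at 201, 223 and 222 CPM with siRNA 2 and 127, 147 and 141 CPM in controls (log2 fold change 0.64, SE 0.02, adjusted p = 6.16e-20). Csrp1, a LIM protein of actin bundles, rose by 0.56, and Wwtr1, which encodes TAZ itself, rose by 0.52. Myh9, non-muscle myosin IIA heavy chain, went the other way, with 1660, 1850 and 1870 CPM with siRNA 2 and 2450, 2540 and 2540 CPM in controls (log2 fold change -0.49, adjusted p = 6.7e-17). The SRF gene, Srf, and the myosin light chain gene Myl9, both named after their values were seen, moved in opposite directions: Srf fell by 0.19 and Myl9 rose by 0.58. The call for Srf was lost without the prefix in the model. Smooth muscle markers, some of which SRF also drives, summed to 458 to 502 CPM with siRNA 2 and 339 to 389 CPM in controls, led by Acta2, and their part in the list's count was not tested.

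SRF binds a DNA element called the CArG box, which is 2 C, then 6 A or T, then 2 G. RefSeq promoters of GRCm38.p6, from 250 bases before to 50 bases after the start site, were found for 41 of the 51 list members, and 8 of them (19.5%) held a CArG box on either strand, of which 6 rose and 1 fell. At least 1 promoter with a CArG box was found for 1.68% of tested genes with a promoter and for 1.81% of all genes with a promoter. The list holds known SRF targets, so a high share is built into it. To show where the box lies in members of either direction, the promoters of Cnn2 and Myl9, which rose, and of Srf, which fell and holds 2 boxes, are printed with the box in capitals, at chr10:79988350-79988649 (forward strand) for Cnn2, chr2:156775214-156775513 (forward strand) for Myl9 and chr17:46556113-46556412 (reverse strand) for Srf.
Cnn2: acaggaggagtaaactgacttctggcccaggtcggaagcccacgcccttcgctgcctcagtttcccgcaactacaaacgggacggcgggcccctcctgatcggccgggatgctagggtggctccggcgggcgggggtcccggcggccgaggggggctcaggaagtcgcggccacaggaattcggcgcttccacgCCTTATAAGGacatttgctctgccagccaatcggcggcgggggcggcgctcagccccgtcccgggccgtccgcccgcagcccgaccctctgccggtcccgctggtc
Myl9: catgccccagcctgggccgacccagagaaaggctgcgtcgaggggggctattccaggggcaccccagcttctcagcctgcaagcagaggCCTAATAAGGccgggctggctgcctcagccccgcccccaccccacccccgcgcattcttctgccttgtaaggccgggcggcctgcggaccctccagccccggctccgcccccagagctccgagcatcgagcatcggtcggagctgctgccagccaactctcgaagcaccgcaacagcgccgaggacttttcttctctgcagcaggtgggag
Srf: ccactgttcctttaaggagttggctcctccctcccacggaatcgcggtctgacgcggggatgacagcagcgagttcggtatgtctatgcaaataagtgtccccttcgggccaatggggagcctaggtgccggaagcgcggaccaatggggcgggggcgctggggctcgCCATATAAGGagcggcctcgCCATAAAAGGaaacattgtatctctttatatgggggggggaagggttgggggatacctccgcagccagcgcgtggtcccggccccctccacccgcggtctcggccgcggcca
The boxes begin at position -56 from the start site in Cnn2, -161 in Myl9 and -82 for the first in Srf. A match describes these letters and is no evidence of binding.

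Matrix and adhesion genes rose broadly. Of 66 extracellular matrix genes tested, 52 rose and 4 fell (median 0.31), and of 40 integrin and adhesion genes 30 rose and 3 fell (0.21). Timp2, an inhibitor of matrix metalloproteinases, stood at 794, 818 and 823 CPM with siRNA 2 and 414, 433 and 412 CPM in controls (log2 fold change 0.95, SE 0.02, adjusted p = 2.89e-24). Fibrillin 1, Fbn1, which builds microfibrils that store TGF-beta, stood at 337, 324 and 348 CPM with siRNA 2 and 190, 185 and 184 CPM in controls (0.85). For both genes every siRNA 2 library lay far above every control library. The basement membrane collagen gene Col4a2 rose by 0.83 and Col8a1, a short-chain collagen, by 0.71. Among adhesion genes, Cd44, the hyaluronan receptor, stood at 1210, 1200 and 1230 CPM with siRNA 2 and 774, 807 and 806 CPM in controls (0.61), and Ncam1, a neural cell adhesion molecule also on myoblasts, rose by 0.51. Lims2, a partner of integrin-linked kinase, fell by 0.90, the focal adhesion adaptor Pxn by 0.19 and the tetraspanin Cd9 by 0.08, a call lost with libraries summed by prefix. Fibroblast markers, which could bring matrix RNA, summed to 13.5 to 16.4 CPM with siRNA 2 and 12.8 CPM in controls, with 0 of 3 tested members called.

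TGF-beta signalling genes moved in both directions, with 24 of 47 rising and 10 falling (median 0.15). The type I receptor gene Tgfbr1 stood at 83.9, 80.8 and 83.8 CPM with siRNA 2 and 43.8, 46.8 and 47.9 CPM in controls (log2 fold change 0.85, SE 0.03, adjusted p = 1.18e-19). Itgav, an integrin subunit that activates latent TGF-beta, rose by 0.60, and Fstl1, a secreted follistatin-like protein, by 0.44. Ltbp1, which tethers latent TGF-beta to the matrix, stood at 172, 188 and 189 CPM with siRNA 2 and 290, 305 and 305 CPM in controls (-0.71, adjusted p = 2.91e-21). Receptor and latent binding protein moved in opposite directions, each without overlap between the groups.

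Microtubule and mitosis genes mostly rose by small amounts. Of 42 tubulin and microtubule regulator genes 24 rose and 2 fell (median 0.13), and of 52 mitosis genes 32 rose and 5 fell (0.11). Map1a, a microtubule-associated protein, stood at 394, 387 and 383 CPM with siRNA 2 and 255, 253 and 240 CPM in controls (log2 fold change 0.64). The beta-tubulin genes Tubb3 and Tubb2b rose by 0.61 and 0.49 and Map1b by 0.41. Stmn1, which destabilises microtubules, fell by 0.17 and Tpgs1, of the tubulin polyglutamylase complex, by 0.15. In the mitosis list, Kif4, a chromosome-bound kinesin, stood at 133, 125 and 127 CPM with siRNA 2 and 77.5, 79.6 and 78.4 CPM in controls (0.71, adjusted p = 1.01e-19), and the mitotic transcription factor Foxm1 rose by 0.36. Incenp, a subunit of the chromosomal passenger complex, fell by 0.57 and the kinetochore protein gene Cenpf by 0.42, so the strongest single changes of this list were not in 1 direction.

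Replication genes had 22 rises and 11 falls among 54 tested (median 0.04), and on the TPM scale 10 and 10 with a median of -0.01, so no direction held for the list. Within it Rrm2, a ribonucleotide reductase subunit, stood at 570, 572 and 572 CPM with siRNA 2 and 382, 392 and 393 CPM in controls (log2 fold change 0.55). Tk1, a thymidine kinase, rose by 0.28, while Dut, which removes dUTP, fell by 0.45 and the helicase subunit Mcm3 by 0.24. Of 58 DNA repair genes 8 rose and 19 fell (median -0.05). Parp1, which senses DNA strand breaks, stood at 94.6, 103 and 103 CPM with siRNA 2 and 150, 150 and 152 CPM in controls (-0.59, adjusted p = 3.01e-18). The uracil glycosylase gene Ung fell by 0.68 and Lig3, a DNA ligase, by 0.32.

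The list of p53 targets and apoptosis genes was split, 14 rising and 11 falling of 42 (median 0.04, and -0.01 on the TPM scale, where 8 rose and 11 fell). Casp6, an executioner caspase, stood at 18.7, 16.7 and 15.7 CPM with siRNA 2 and 9.29, 7.92 and 8.07 CPM in controls (log2 fold change 1.01, adjusted p = 5.17e-15). Plk2, a p53-induced kinase, went the other way, with 76.3, 81.2 and 74.0 CPM with siRNA 2 and 135, 145 and 145 CPM in controls (-0.88, adjusted p = 7.49e-20). The cell cycle inhibitor gene Cdkn1a rose by 0.37 and the pro-apoptotic gene Bak1 by 0.22. Cdkn1a and Plk2, both known p53 targets, moved in opposite directions.

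Of 33 genes that write, erase or read H3K36 methylation 7 rose and 15 fell (median 0.00), and Setd2 is 1 of the 15. Zmynd11, a reader of trimethylated H3K36 on histone H3.3, stood at 81.7, 80.5 and 81.7 CPM with siRNA 2 and 128, 130 and 132 CPM in controls (log2 fold change -0.68, SE 0.02, adjusted p = 1.09e-19). The groups lay far apart with almost no spread. Riox2, a ribosomal and histone oxygenase, fell by 0.51, Hdgfl2, a PWWP-domain reader, by 0.45, and Supt16, a subunit of the histone chaperone FACT, by 0.34. Splicing factor genes fell in 27 of 52 cases and rose in 8 (median -0.08). Snrnp70, of the U1 particle, stood at 152, 161 and 155 CPM with siRNA 2 and 220, 216 and 218 CPM in controls (-0.49), and Hnrnpm fell by 0.43. Prpf19, of the spliceosome's activating complex, rose, with 187, 197 and 194 CPM with siRNA 2 and 118, 118 and 117 CPM in controls (0.71, adjusted p = 9.08e-21), as did the RNA-binding protein gene Celf2 (0.47).

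Small RNA silencing genes, only some of which act with an siRNA, rose in 12 of 17 cases and fell in 2 (median 0.12). On the TPM scale 7 rose, and 8 rose without the prefix in the model. Both groups received an siRNA. The Argonaute gene Ago2 stood at 523, 559 and 579 CPM with siRNA 2 and 397, 422 and 428 CPM in controls (log2 fold change 0.41), and its partners Tnrc6b and Tnrc6a rose by 0.69 and 0.38. Drosha, the nuclease that starts microRNA processing, was at 73.2, 73.7 and 71.3 CPM with siRNA 2 and 126, 127 and 130 CPM in controls (-0.81, SE 0.03, adjusted p = 5.58e-21), and the export factor gene Xpo5 fell by 0.14. Drosha and Xpo5 were the only falls of the list. For Xpo5 the groups overlapped, with 118, 126 and 122 CPM with siRNA 2 and 126, 137 and 142 CPM in controls.

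Of 29 cholesterol synthesis and uptake genes 19 rose and 3 fell (median 0.14). Idi1, which isomerises isopentenyl diphosphate, stood at 224, 228 and 238 CPM with siRNA 2 and 149, 171 and 171 CPM in controls (log2 fold change 0.50, adjusted p = 7.83e-13). Insig1, the sterol sensor that retains SREBP, rose by 0.31, Hsd17b7 by 0.28 and Nsdhl by 0.25, the last 2 encoding late enzymes of the pathway. Among the 3 falls were the efflux transporter gene Abca1 (-0.71), whose call was lost with limma on TPM, and the reductase gene Tm7sf2 (-0.24). For Tm7sf2 the groups overlapped. Its call was lost with DESeq2, with limma on TPM, without the prefix, with libraries summed by prefix and when any of several libraries was left out. Acly, which is not in this list and is named for its difference between the siRNAs, encodes the enzyme that makes cytosolic acetyl-CoA. It stood at 137, 151 and 141 CPM with siRNA 2 and 337, 358 and 364 CPM in controls (-1.30, SE 0.02, adjusted p = 4.17e-26), with no overlap.

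Integrated stress and unfolded protein response genes rose in 27 of 43 cases and fell in 6 (median 0.17). The chaperone gene Canx rose by 0.62 and the transcription factor genes Creb3l1 and Atf6, both activated by cleavage at the Golgi, by 0.51 and 0.33. Cebpb, another transcription factor, stood at 43.1, 48.2 and 45.9 CPM with siRNA 2 and 69.1, 63.8 and 67.0 CPM in controls (-0.55, adjusted p = 1.26e-12). Glycolysis and fatty acid oxidation genes had 15 rises and 11 falls of 52 (median 0.02), turning to 8 and 13 with a median of -0.02 on the TPM scale. Eno3, the muscle enolase, stood at 445, 460 and 456 CPM with siRNA 2 and 320, 317 and 302 CPM in controls (0.54), whereas Pdk4, which restrains pyruvate oxidation, fell by 0.65 and the acyl-CoA synthetase gene Acsl3 by 0.39.

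In the insulin-like growth factor axis 16 of 28 genes rose and 3 fell (median 0.27), with 9 rising and a median of 0.12 on the TPM scale. The binding protein gene Igfbp5 stood at 4630, 3540 and 3500 CPM with siRNA 2 and 3010, 2470 and 2240 CPM in controls (log2 fold change 0.59), and Igfbp7 at 50.9, 52.0 and 53.9 CPM with siRNA 2 and 28.4, 29.1 and 26.4 CPM in controls (0.90, adjusted p = 1.64e-18). Neither gene's groups overlapped. Stc2, an inhibitor of the protease PAPP-A, rose by 0.51. The 3 falls were Pappa itself (3.17, 2.72 and 4.18 CPM with siRNA 2, 7.60, 9.76 and 10.1 CPM in controls), the kinase gene Akt1 (-0.51, adjusted p = 1.78e-16) and the receptor gene Igf1r (-0.28). Igf2, chosen after its values were seen, overlapped between groups, with 7.85, 3.18 and 3.76 CPM with siRNA 2 and 5.72, 3.05 and 1.95 CPM in controls (0.47, adjusted p = 0.00314), and its call was lost on the TPM scale and without the prefix in the model. Of 26 imprinted growth genes 9 rose and 5 fell (median 0.09), with 5 rising and 3 falling without the prefix in the model and 7 and 3 on the TPM scale. Besides Peg10, Peg3, a zinc finger gene, rose by 0.60 and the sarcoglycan gene Sgce, which neighbours Peg10, by 0.40, and Copg2 fell by 0.48.

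Immune and signalling lists lay nearer to the background. Of 30 interferon response genes 10 rose and 4 fell (median 0.07), and of 40 NF-kB and cytokine genes 14 rose and 6 fell (0.11). Tlr3, a sensor of double-stranded RNA, stood at 5.15, 4.50 and 4.61 CPM with siRNA 2 and 2.46, 2.60 and 2.41 CPM in controls (log2 fold change 0.93, adjusted p = 5.1e-09). Ifit2 rose by 0.52 and B2m, the light chain of MHC class I, by 0.33, and the ubiquitin ligase gene Trim25 fell by 0.36. Vcam1, an adhesion molecule induced by cytokines, rose by 0.60, the growth factor gene Csf1 by 0.41 and Tnfaip2 by 0.33. The interleukin 6 receptor gene Il6ra fell, with 7.52, 8.64 and 9.24 CPM with siRNA 2 and 18.2, 21.0 and 21.4 CPM in controls (-1.25, adjusted p = 2.63e-18). Leukocyte markers summed to 8.46 to 10.5 CPM with siRNA 2 and 8.94 to 10.3 CPM in controls, with Adgre1 and Tyrobp at 0.

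Wnt signalling genes rose in 15 of 47 cases and fell in 7 (median 0.06), with 6 and 5 on the TPM scale and 7 and 5 without the prefix in the model. The receptor gene Fzd3 rose by 0.79 and Gsk3b, a kinase of the destruction complex, by 0.42, and the coreceptor gene Lrp5 fell by 0.36. The ligand gene Wnt7b stood at 3.64, 3.45 and 4.52 CPM with siRNA 2 and 9.34, 7.62 and 8.42 CPM in controls (log2 fold change -1.13, adjusted p = 1.05e-10). Immediate early genes, which respond within a short time to stretch and other stimuli, were split with 15 rising and 13 falling of 37 (median 0.05), and 9 and 5 without the prefix in the model. Klf2, a mechanosensitive factor, stood at 71.7, 71.6 and 73.9 CPM with siRNA 2 and 46.1, 48.6 and 47.7 CPM in controls (0.61), Nr4a2 rose by 0.40, Egr3 fell by 0.67 and Fosl2 by 0.21. Nr4a2 overlapped between the groups, with 18.7 CPM in the C14 library of siRNA 2 against 13.4, 19.9 and 20.1 CPM in controls, and its call was lost without the prefix in the model. In all 23 lists, leaving out the library named SETD3 moved the count of rises by at most 5, that of falls by at most 3 and the median by at most 0.10.

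**Figure D3:**
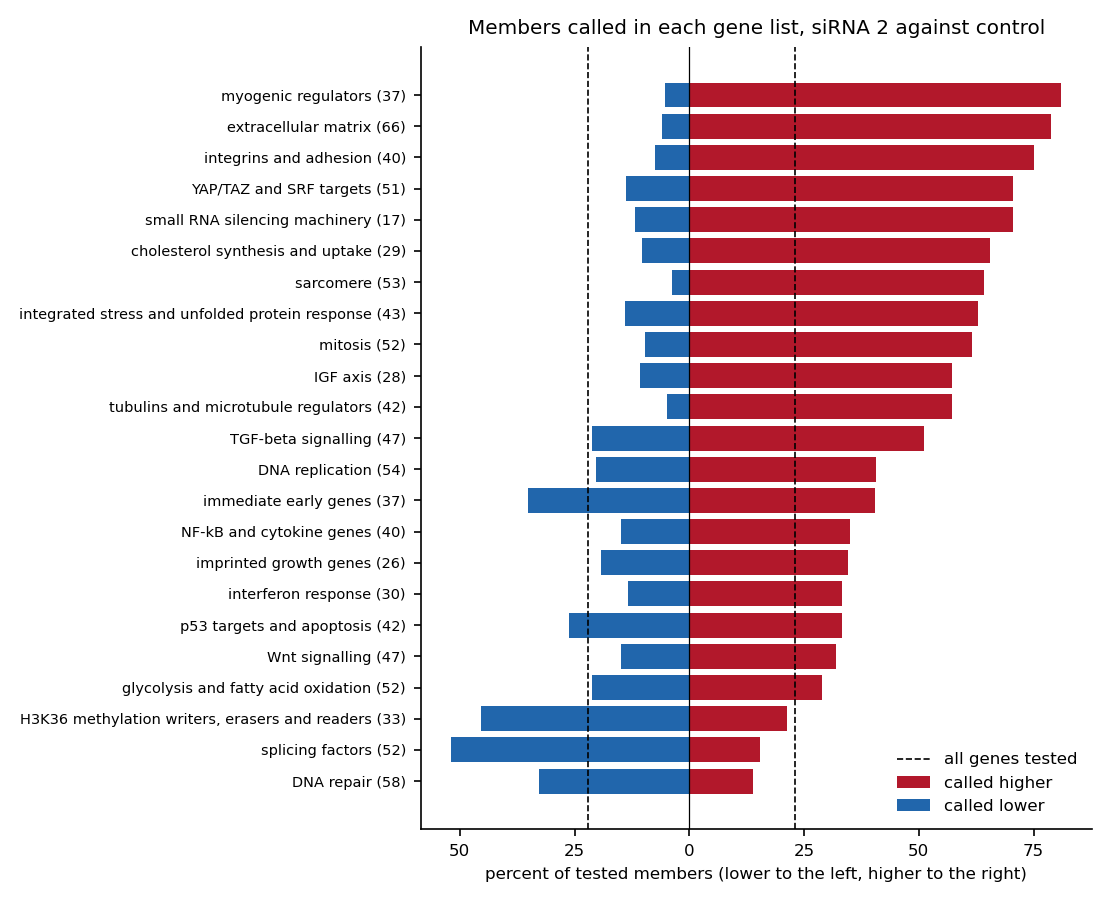
Percent of the tested members of each of 23 gene lists that were called higher (red, right) or lower (blue, left) with siRNA 2 than in controls, with the number tested in parentheses and dashed lines at 23.1% and 22.1% for all genes. Myogenic, matrix, adhesion, small RNA silencing and YAP/TAZ and SRF lists reach furthest to the right of the line, and splicing and H3K36 lists furthest to the left.

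The difference between siRNA 2 and siRNA 1, both of which lowered Setd2, was tested directly in the same fit. Setd2 levels did not differ past the threshold (43.9 ± 3.10 CPM with siRNA 2 and 40.2 ± 4.41 CPM with siRNA 1, SD, n = 3 each; log2 difference 0.13, SE 0.13, adjusted p = 0.507), yet 6236 of 15942 genes (39.1%) differed, 3052 above and 3184 below in siRNA 2. Without the prefix in the model 4103 differed. Both siRNAs are set against the same control libraries, so their values are given side by side. Acly had a log2 fold change of -1.30 with siRNA 2 and -0.13 with siRNA 1 (adjusted p of the difference 2.38e-24). Gpd2, the mitochondrial glycerophosphate dehydrogenase, stood at -1.04 with siRNA 2 and 0.04 with siRNA 1, Grk6, a receptor kinase, at -1.05 and 0.11, Itsn2, an endocytic scaffold, at -1.04 and 0.10, and Mink1 at -1.33 and -0.02. Several of the largest falls given above were thus close to 0 with siRNA 1, among them Cpt2 (-1.34 with siRNA 2, -0.06 with siRNA 1), Zdhhc4 (-1.53 and -0.13) and Tbc1d10b (-1.31 and -0.04). Changes that follow from loss of Setd2 and changes that follow from the sequence of an siRNA cannot be told apart in this design.

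Genes moved in opposite directions too. The MAP kinase phosphatase gene Dusp9 fell by 1.25 with siRNA 2 and rose by 1.01 with siRNA 1, and Ankrd13a, a ubiquitin-binding protein gene, fell by 0.92 with siRNA 2 and rose by 0.42 with siRNA 1. Cyclin D2, Ccnd2, rose by 0.26 with siRNA 2 and fell by 0.78 with siRNA 1, and Itgb3, the beta subunit that pairs with the product of Itgav, rose by 0.52 and fell by 0.42. Vasn, a TGF-beta-binding membrane protein gene, the Wnt receptor gene Fzd7 and Pnp, of purine salvage, stood at 0.47, 0.24 and 0.28 with siRNA 2 and at -0.20, -0.41 and -0.54 with siRNA 1. Tgfbr1 was at 0.85 with siRNA 2 and -0.01 with siRNA 1. For some genes the difference between the siRNAs did not pass the test, which does not show that they act alike. Lhfp rose by 1.37 with siRNA 2 and 1.33 with siRNA 1 (difference 0.04, SE 0.03, adjusted p = 0.316), Prpf19 by 0.71 and 0.73, Tnrc6b by 0.69 and 0.66 and Col8a1 by 0.71 and 0.73. Of all genes tested, 19.1% were higher with siRNA 2 than with siRNA 1 and 20% lower. Of the myogenic list 27 of 37 members were higher with siRNA 2 than with siRNA 1 and 4 lower, of the sarcomere list 32 and 2 of 53, and of the cholesterol list 20 and 1 of 29. Smyd1 stood at 1.32 with siRNA 2 and 0.18 with siRNA 1. Among interferon genes 14 of 30 were higher with siRNA 2 than with siRNA 1 and 0 lower. Against the shared controls, 10 of these 30 rose and 4 fell with siRNA 2 (median 0.07), and 4 rose and 11 fell with siRNA 1 (median -0.22), where 17.6% of all genes rose and 13.9% fell. The siRNA 1 libraries held 3.56% to 3.91% of ribosomal RNA-like counts, and its part in these differences was not tested.

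**Figure D4:**
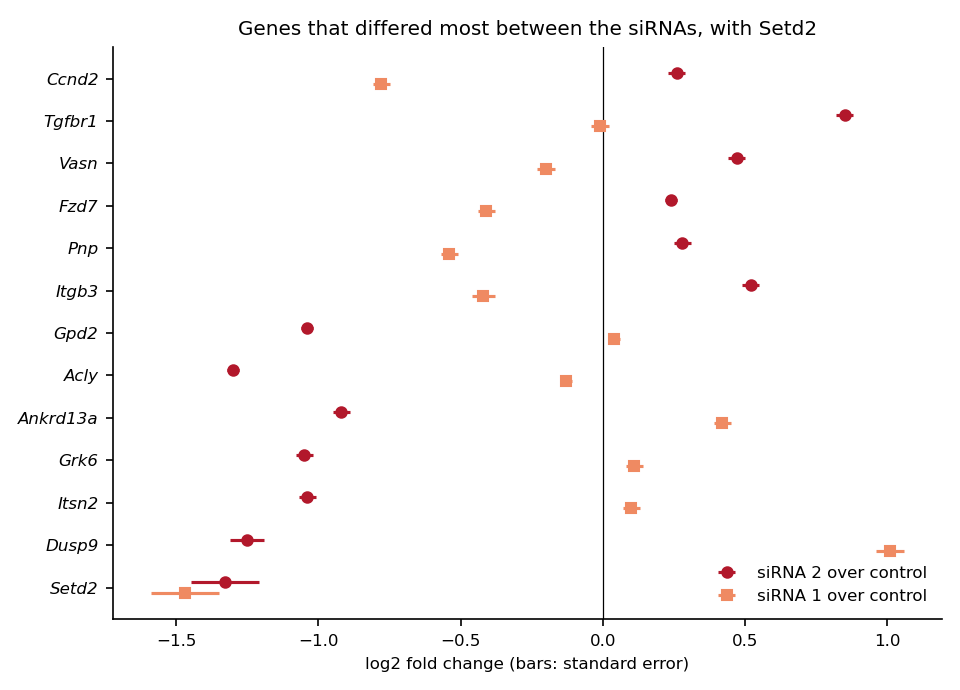
Log2 fold change over the same 3 control libraries with siRNA 2 (red circles) and siRNA 1 (orange squares), with the standard error as bars, for the 6 genes of smallest p above and the 6 below in the test of siRNA 2 against siRNA 1, and Setd2. The 12 genes were chosen for their difference, and Setd2 is at -1.33 and -1.47.

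The effect of siRNA 2 was then set against its effect in myotubes, with the difference of effects tested over all 18 libraries. Myoblast values are those of the 9-library fit used above, and myotube values and the differences come from the 18-library fit. The third myotube control has NT_2 in its library name where the others have NT_1, and whether it had another control siRNA is not stated. Setd2 fell in both stages, with log2 fold changes of -1.33 in myoblasts and -1.46 in myotubes (adjusted p of the difference 0.656). The effect differed for 6093 of 17274 genes (35.3%), being more positive in myoblasts for 3200 and more negative for 2893. For 1357 genes the call itself was opposite in the stages, 855 of them higher with siRNA 2 in myoblasts and lower in myotubes. In myotubes 19.3% of all genes tested rose and 19% fell. Of 52 mitosis genes 32 rose and 5 fell in myoblasts, while 0 rose and 49 fell in myotubes. Foxm1 stood at 0.36 in myoblasts and -0.41 in myotubes. Its control mean in the 18-library fit was 168 CPM in myoblasts and 32.7 CPM in myotubes. Kif4 (76.5 and 15.8 CPM), Incenp (152 and 25.8 CPM) and Cenpf (300 and 59.2 CPM) were also lower in myotube controls. The myotube falls of these genes thus start from a lower level. YAP/TAZ and SRF targets had a median of 0.25 in myoblasts and -0.22 in myotubes, where 7 of 51 rose and 29 fell. Cholesterol genes had medians of 0.14 and -0.19 and stress response genes of 0.17 and -0.12. Sarcomere genes had 23 rises and 12 falls in myotubes (median 0.09), and glycolysis and fatty acid oxidation genes had 38 rises and 6 falls there (0.26), against 0.02 in myoblasts.

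Among single genes with the smallest p for this difference, Id3 rose in myoblasts and fell in myotubes (log2 fold changes 0.78 and -0.78, adjusted p of the difference 8.99e-16). Ccn4, a matricellular Wnt target, stood at 0.95 in myoblasts and -0.25 in myotubes, Cnn2 at 0.64 and -0.44 and the kelch protein gene Klhl30 at 0.67 and -0.35. Timp2 and Lhfp rose in myoblasts by 0.95 and 1.37 and stood at -0.10 and 0.16 in myotubes. On the other side Pabpc4, a cytoplasmic poly(A)-binding protein gene, was at -0.88 in myoblasts and 0.25 in myotubes, Tsc22d4 at -0.73 and 0.24, and Idh3a, a subunit of the mitochondrial isocitrate dehydrogenase, at -0.08 and 0.67. The spindle checkpoint gene Mad1l1, the cell surface hyaluronidase gene Cemip2 and the calcium-binding protein gene Efhd2 fell by 1.18, 0.99 and 1.14 in myoblasts and stood at -0.11, -0.08 and -0.13 in myotubes. Synpo2l, the largest rise in myoblasts, stood at -0.14 in myotubes, where its level was 589 ± 37.2 CPM with siRNA 2 and 631 ± 29.2 CPM in controls.

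**Figure D5:**
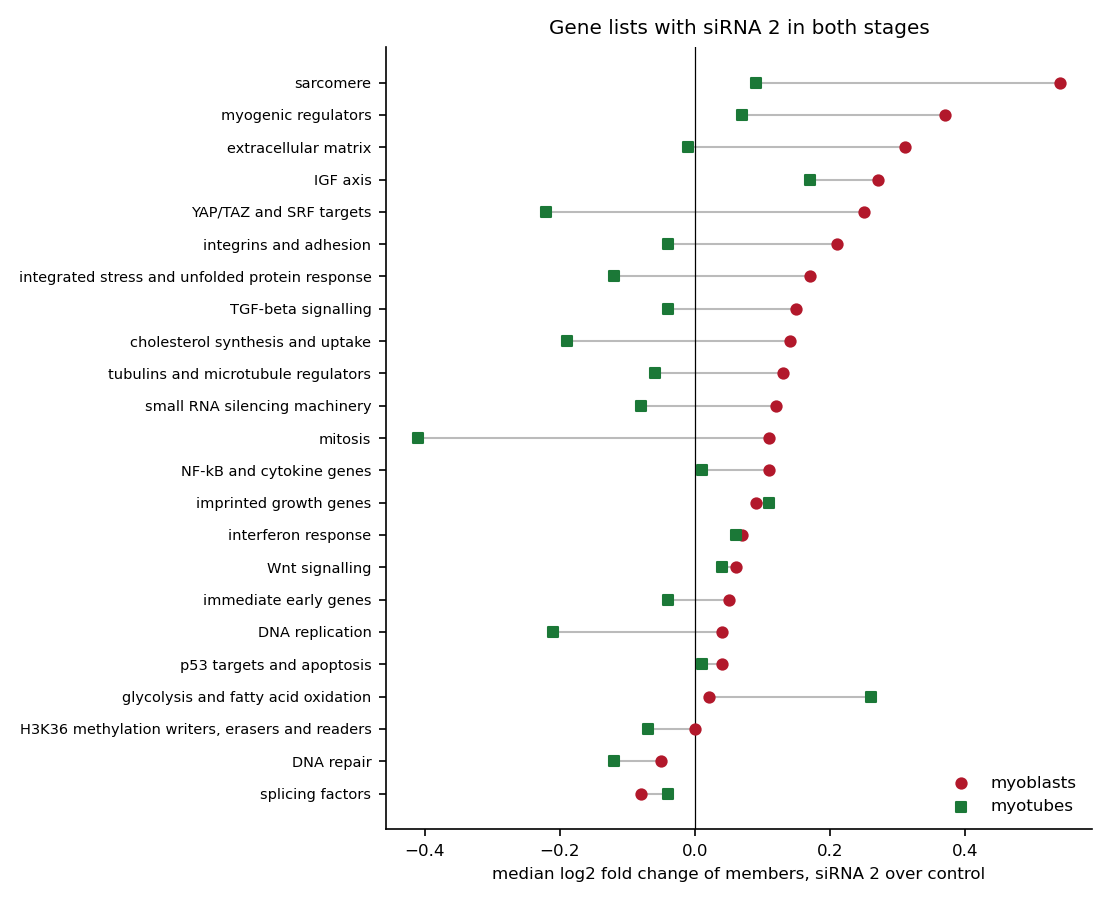
Median log2 fold change of siRNA 2 over control for the members of 23 gene lists in myoblasts (red circles) and myotubes (green squares). The mitosis, YAP/TAZ and SRF, stress response and cholesterol medians lie on opposite sides of 0 in the 2 stages, and the sarcomere median is 0.54 in myoblasts and 0.09 in myotubes.

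Finally, called genes were described by gene structure, since the mark that SETD2 writes lies along gene bodies. Genes are not independent replicates, and no test was made. Of 13012 protein-coding genes tested, 27.1% rose and 25.7% fell. Among the 308 longer than 300000 bases 31.8% rose and 13.6% fell, and among the 3194 of up to 10000 bases 22.8% rose and 23.5% fell. The 350 genes with a single exon had 14% rising and 22.6% falling, and those with more than 19 exons had 31.7% and 26.7%. Median levels differ between these groups, from 1.82 CPM for single-exon genes to 53.8 CPM for those with more than 19 exons, and a call is easier at a higher level. Along GC content the share of rises stayed between 26.8% and 28.5%.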

How the data were processed

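RNA was measured by sequencing polyA RNA from 18 C2C12 samples, of which 9 are myoblasts. The deposited tables, 1 per stage, hold an estimated count, a TPM (length-corrected abundance scaled within each library by the authors) and a length for 115088 Ensembl transcripts. Column names per the file headers match the output of salmon-type quantifiers, with version and settings not given in the sources used here. Genome build mm10 and the tool DESeq2 are listed in the submitters' processing notes, without a role. Strandedness is not stated either, so reads of genes that overlap on opposite strands may be mixed.

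The authors' estimated counts were summed per gene through GENCODE M21 (114200 transcripts matched, 47311 genes; the 888 unmatched held 0.222% to 0.24% of myoblast counts) and rounded. Column names were matched to the library names in the labels. Genes kept by filterByExpr (minimum count 10) were TMM-scaled and tested with edgeR 4.0.16 in R 4.3.3 (glmQLFit, robust, and glmQLFTest) over all 9 myoblast libraries, with 3 groups and the library prefix (5 residual degrees of freedom). P-values were Benjamini-Hochberg adjusted over all genes tested, with a call at 0.05. The stage difference used all 18 libraries, with prefix within stage. Standard errors come from the F statistic, and SD is over 3 libraries. The fit was tested on simulated data with independent libraries, the dispersions of this fit, no prefix effect and 100 genes changed at each size. It recovered 92% of genes changed 1.5-fold and 97% of those changed 2-fold, with 13 false calls among 15613 genes. These settings differ from the data, so the rate of false calls in the data was not measured.

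Alternatives were no prefix, only the 6 libraries, a replicate block, same-prefix libraries summed, RLE scaling, no filter, DESeq2 1.42.0, limma 3.58.1 on log2(TPM + 0.5) and leaving out each library. The fit of same-prefix libraries summed left 2 residual degrees of freedom. Its adjusted p was far smaller for some genes, such as Mink1 (1.02e-294, against 5.92e-23 as reported, edgeR quasi-likelihood test). With 2 residual degrees of freedom, values that small must rest mainly on the spread shared across genes. The fit therefore cannot show whether calls hold with each prefix as 1 unit. No replicate pair held identical values. The members and lists were chosen with earlier results of these data known, and lists were described without a test. Named genes are Setd2, the 12 largest rises and 12 largest falls among called protein-coding genes with a mean of at least 1 CPM and no overlap between groups, up to 4 called members per list by smallest p, list members called against the majority where 3 or fewer, and 6 genes per direction for each of the other contrasts. Genes named outside this rule are said to be so, and some genes that the rule names are not reported here.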

Additional observations from a re-analysis of the deposited data

Results flagged for a closer look

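The effect of siRNA 2 differed between myoblasts and myotubes for 6093 genes, by a test of the difference itself (edgeR quasi-likelihood). The 12 genes with the smallest p carried the following differences, myoblast log2 fold change minus myotube log2 fold change. The effect was more positive in myoblasts for Id3 (1.57), Lhfp (1.23), Ccn4 (1.20), Cnn2 (1.09), Timp2 (1.06) and Klhl30 (1.03). It was more negative in myoblasts for Pabpc4 (-1.13), Mad1l1 (-1.06), Efhd2 (-1), Tsc22d4 (-0.96), Cemip2 (-0.90) and Idh3a (-0.74). Stage, table and prefix names change together, so they cannot be told apart as a source of these differences.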

How the results depend on the processing

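For siRNA 2 against control, 5222 to 7209 genes were called over the 14 alternatives, against 7208 as reported, and 6485 to 6751 with 1 library left out. The rises alone numbered 2210 with limma on TPM, against 3690, and the cause was not tested. The genes called for siRNA 2 against siRNA 1 were 4103 without the prefix in the model, against 6236, and 4994 to 5902 with an siRNA 2 library left out. Those called for the stage difference were 4562 to 6084 over its alternatives, against 6093. Setd2 kept its call throughout (log2 fold changes -1.48 to -1.15).

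Deviations from the group means of same-numbered siRNA 2 and control libraries correlated at 0.274, 0.051 and 0.13, and differently numbered ones at -0.22 to 0.113. The highest value was that of replicate 1, the C14 library of each group. Within D2 the same-numbered pairs (0.051 and 0.13) lay near the others (0.036 and 0.113), so replicate numbers added little beyond the prefix. With a replicate block 7026 genes were called, 6946 of them as reported, and Setd2 stood at -1.33 (adjusted p = 0.0138).

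Of 2324 values for the other 166 named genes, 2282 kept direction and call, 38 lost the call and 4 reversed, all in genes near 0: Nsd2 (-0.05), Nsd3 (-0.03) and Pax7 (-0.01) with limma on TPM, and Nsd3 without control replicate 1 (its values with 1 library left out ran from -0.00 to 0.04). Depth was 45.2 to 63.0 megareads, and genes under the count filter were not tested.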

Other observations

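Noncoding genes, named here by the 5 largest changes in each direction and chosen after their values were seen, are described next. Of 371 lincRNA genes 5.93% rose and 8.89% fell, at a median level of 0.614 CPM against 26.8 CPM for protein-coding genes. H19, an imprinted noncoding RNA abundant in muscle precursors, stood at 1950, 1230 and 1310 CPM with siRNA 2 and 922, 561 and 498 CPM in controls (log2 fold change 1.20, SE 0.07, adjusted p = 2.83e-05, edgeR quasi-likelihood test). The C14 library of each group was the highest, and the groups did not overlap. With siRNA 1 its log2 fold change was 0.25. Gm26788, D430036J16Rik, Gm26737 and Gm28653 rose by 1.18, 1.11, 0.92 and 0.89, the last losing its call without the prefix in the model. Sp3os, 1600020E01Rik, 5930403N24Rik, Gm19557 and 8430429K09Rik fell by 0.83, 0.76, 0.71, 0.65 and 0.64, and the call for 5930403N24Rik was lost on the TPM scale. Without strand, reads of Sp3os and its antisense partner cannot be told apart.

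Sp7, a transcription factor of bone-forming cells that lies below the 1 CPM used for naming genes, stood at 0.684, 0.824 and 0.851 CPM with siRNA 2 and 0.153, 0.206 and 0.198 CPM in controls (log2 fold change 2.07, SE 0.31, adjusted p = 1.49e-06), and at -0.34 with siRNA 1 (adjusted p = 0.592). It was chosen after its values were seen. The osteoblast and chondrocyte markers as a list summed to 195 to 221 CPM with siRNA 2 and 219 to 236 CPM in controls, with 2 of 4 tested members higher, 2 lower, and Ibsp and Acan at 0.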
